A study of Mus musculus with 6 samples.

Results

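The genes described here are 37 heat shock and unfolded protein response genes of the mouse, taken by symbol from a table of 24062 genes; each of the 37 symbols had 1 row. They encode chaperones of the endoplasmic reticulum (ER), the cytosol and mitochondria, the machinery that removes misfolded ER proteins, and the sensors and transcription factors that control both stress programmes. Messenger RNA was measured in MII eggs, which are ovulated, not yet fertilized and held at the second meiotic metaphase, from superovulated females aged 8 weeks that carried HISRainbow together with Figla-iCre. Figla is an oocyte gene and its promoter drives the recombinase, and the eggs with each colour were picked out under a confocal microscope. The 3 groups were eggs with the eGFP-tagged, unsubstituted histone (H3.3), eggs with H3.3 carrying the lysine-to-arginine change K27R joined to mCherry (K27R), and eggs with H3.3 carrying the arginine-to-lysine change R26K joined to eCFP (R26K). Every group had the transgene, the recombinase and the hormone treatment, and because each form had a tag of its own, the tag cannot be told apart from the substitution. Each group had 2 libraries, described as biological replicates; how many eggs or females stood behind a library is not given in the sources used here. As a result, p-values cover only the spread between these 2 libraries per group, which may be technical.

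The unfolded protein response is set off when unfolded proteins gather in the ER, where proteins bound for the membrane or for secretion are folded. Its sensors, encoded by Ern1 (IRE1 alpha), Eif2ak3 (PERK) and Atf6, act through the transcription factors XBP1, ATF4 and cleaved ATF6, which raise ER chaperones, degradation factors and, under lasting stress, Ddit3 (CHOP). The heat shock response is the corresponding programme of the cytosol and nucleus, in which HSF1 binds promoters of HSP70, HSP90 and their co-chaperones. The growing oocyte makes large amounts of secreted protein for the zona pellucida, and maternal HSF1 is known to be needed for normal meiotic maturation. MII eggs are transcriptionally silent, so that a level in them is that of stored mRNA.

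Gene counts totalled between 10803477 and 12748821 in the 4 libraries of H3.3 and K27R eggs, and the R26K libraries, which were deeper, had 33786225 and 39603440. In any comparison with R26K eggs, depth and group cannot be told apart. Levels are given as CPM (counts per library total, with TMM scaling), and 3 counts stood for between 0.0815 CPM, in the deepest library, and 0.285 CPM. For genes whose mean over the remaining libraries was 2 to 10 CPM, the share without a count was 57.7% and 58.9% in the H3.3 pair, 21% and 59.4% in the K27R pair, and 8.2% and 8.89% in the R26K pair. At 20 to 50 CPM it was 15% and 19.1% in the H3.3 pair, 0.657% and 15.8% in the K27R pair, and 0.108% and 0.385% in the R26K pair. Of 16 egg markers 14 or 15 had a count in each library, and the oocyte growth factor Gdf9 lay between 11040 and 16125 CPM. Of 25 cumulus and granulosa markers, between 4 and 18 had a count, with a summed level of 966 and 1837 CPM in H3.3 eggs, 1975 and 1417 CPM in K27R eggs and 2098 and 2041 CPM in R26K eggs; Areg, Ereg, Pgr and Lhcgr were at 0 in each library, and most of the sum was Serpine2. The blood, immune, stromal and epithelial markers summed to between 27.02 and 174 CPM, with Ptprc, Hba-a1 and Hbb-bs at 0. Their part in the results was not tested. In bulk libraries of this kind, fewer cells of a type and less RNA per cell cannot be told apart.

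The 37 genes together made up 4634 and 3624 CPM in H3.3 eggs, 3598 and 3772 CPM in K27R eggs and 4348 and 4597 CPM in R26K eggs; the H3.3 pair overlapped both other pairs, and the R26K pair lay above the K27R pair. Per kilobase of the longest protein-coding transcript, mean levels over the 6 libraries were highest for Pdia6 at 262 CPM per kb, Hsp90ab1 at 258 CPM per kb and Creld2 at 178 CPM per kb, followed by Hsp90aa1 at 137 CPM per kb and Canx at 79.5 CPM per kb. At the other end, Bag3 had no count in any library, Hsf2 averaged 0.117 CPM per kb and Dnajb9 averaged 0.703 CPM per kb. This order differed among the groups. In H3.3 eggs the highest means were those of Pdia6 at 340.3, Hsp90ab1 at 289.6, Hsp90aa1 at 173 and Canx at 107 CPM per kb, with Creld2 at 45.6 CPM per kb. In R26K eggs they were those of Creld2 at 346, Hsp90ab1 at 266, Pdia6 at 198 and Sdf2l1 at 169.7 CPM per kb, with Canx at 33.96 CPM per kb. The plot of all 37 levels by library shows the spread within each pair of libraries.

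**Figure D1:**
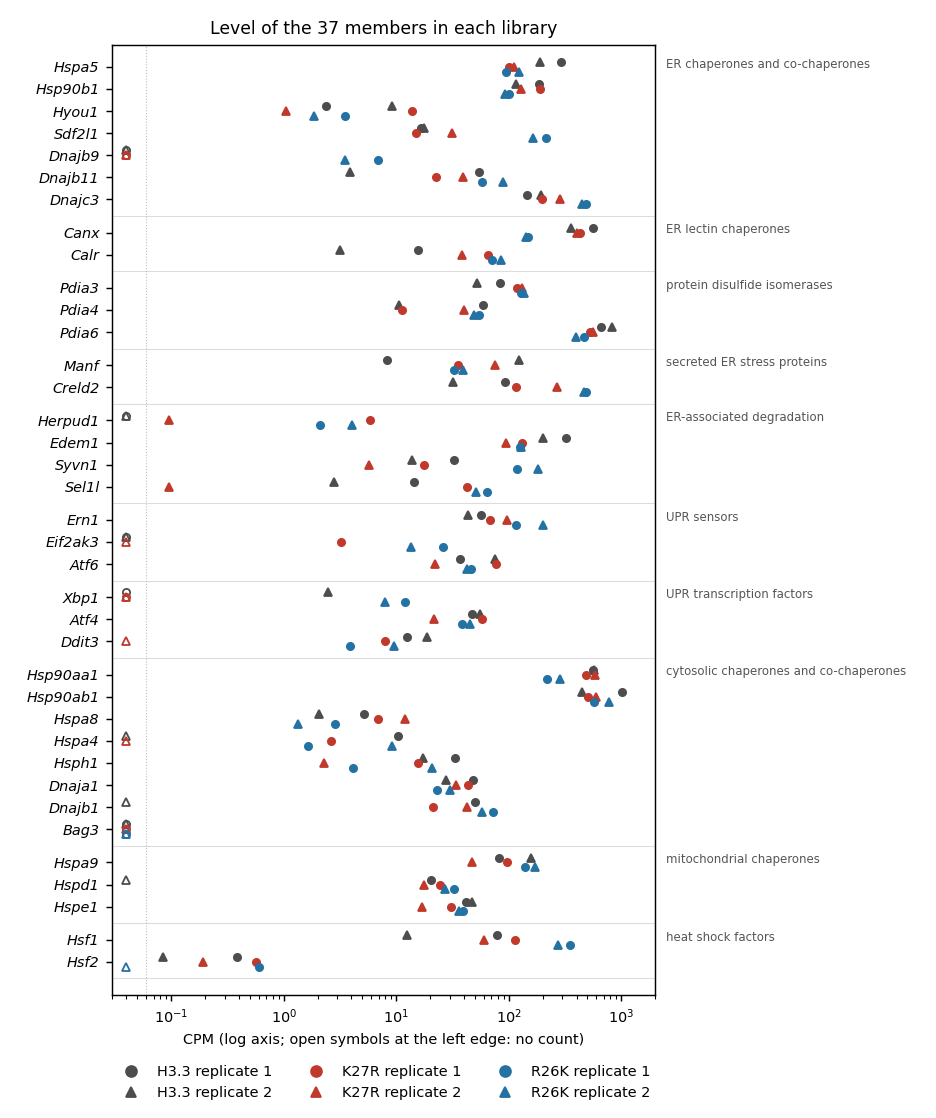
Level of each of the 37 genes in each of the 6 libraries, grouped by role, in CPM on a log axis; circles are replicate 1, triangles replicate 2, and open symbols at the left edge are libraries with no count. Sdf2l1, Dnajc3, Creld2, Syvn1 and Hsf1 have both R26K libraries above the other 4, Canx and Hsp90aa1 have both below, and the H3.3 and K27R pairs are wider apart than the R26K pair for many genes.

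Of the 37 genes, 35 passed the filter on low counts and were tested; Bag3 and Hsf2 were not. None of the 35 passed edgeR's quasi-likelihood test at an adjusted p under 0.05 in any comparison. The test was fitted on 10667 genes, with p-values adjusted over all of them by Benjamini-Hochberg, and it called 66 of them (0.619%) for R26K against H3.3, 43 higher and 23 lower. The share called was 0% in the K27R against H3.3 comparison and 0.375% (18 higher and 22 lower) where K27R was set against R26K. Under upper-quartile scaling these splits became 31 higher and 27 lower, and 23 higher and 17 lower. An unadjusted p under 0.05 was found for 14 of the 35 (40%) in R26K against H3.3, against 21.7% of all tested genes; 9 were higher and 5 lower in R26K eggs. K27R against H3.3 had 4 of 35 (11.4%), against 7.12% of all genes, and K27R against R26K had 6 of 35 (17.1%), against 13.2%. DESeq2, the other tool used, called 12 of the genes in R26K against H3.3, where it called 18.1% of all genes with an adjusted p. Calr, Creld2, Dnajc3, Eif2ak3, Ern1, Hsf1, Sdf2l1 and Syvn1 were the 8 higher, and Canx, Hsp90aa1, Hspa5 and Pdia6 the 4 lower in R26K eggs. The DESeq2 count was 0 in K27R against H3.3, next to 7.8% of all genes, and 4 in K27R against R26K (Canx and Hsp90aa1 higher, Sdf2l1 and Syvn1 lower in K27R eggs), next to 8.57% of all genes; Dnajb9 and Herpud1 got no adjusted p. Since edgeR called none of the 37 genes, their directions below are given as measured values.

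Both libraries of R26K lay above both of H3.3 for 16 of the 35 genes (45.7%), which is close to the 44.9% of all tested genes, and below both for 9 genes (25.7%), against 15.2% of all genes. Of all tested genes 2210 had no count in either library of H3.3, and these can only lie level or higher in R26K eggs. At a mean level of 50 CPM or more, 7 of 17 members lay higher, against 36.6% of such genes, and 6 of 17 lay lower, against 31.1%. The median log2 fold change of the 35 genes was 0.37 against 0.66 over all genes, and that of the 17 abundant ones was -0.12 against 0.03. Upper-quartile scaling moved the first pair of medians to 0.17 and 0.47. Members with large differences lay on both sides.

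**Figure D2:**
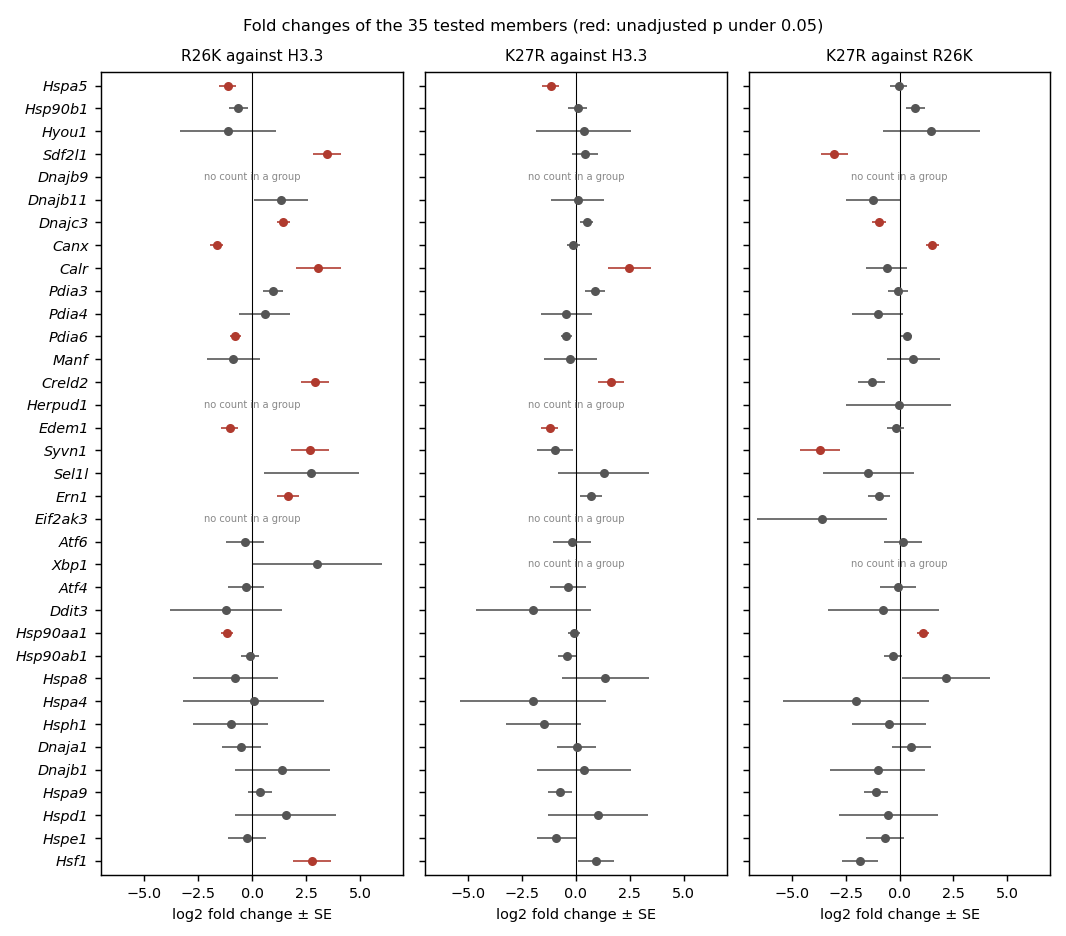
Log2 fold change with its standard error (SE) from the edgeR fit for the 35 tested genes in each of the 3 comparisons; red points have an unadjusted p under 0.05, and genes without a count in 1 or both groups have no point. In R26K against H3.3, Sdf2l1 at 3.45 and Canx at -1.65 mark the 2 sides, and in K27R against H3.3 the points lie between -1.97 (Hspa4) and 2.48 (Calr).

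Many promoters of ER chaperone genes are known to share a control element. This ER stress element, CCAAT followed after 9 bases by CCACG, is bound by NF-Y at its first part and by ATF6 or XBP1 at its second. It was searched on both strands from 250 bases before to 50 bases after each annotated start (RefSeq, GRCm38.p6), which could be read for 29 of the 37 genes; Hyou1, Manf, Atf6, Hsp90aa1, Hsp90ab1, Hspa8, Hspa9 and Hsf1 had no window. A match was found in 8 of the 29 (27.6%) and in 37 of all 27025 genes with a window (0.137%). The matches are shown because genes that carry the same element lay on opposite sides in R26K eggs; capitals mark the element, all sequences run 5′ to 3′ on the strand of the gene, and an element that starts with CGTGG is read on the other strand.
Hspa5, chr2:34772020-34772048, plus strand: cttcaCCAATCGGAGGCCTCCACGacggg
Hsp90b1, first match, chr10:86705633-86705661, minus strand: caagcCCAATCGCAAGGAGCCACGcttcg
Hsp90b1, second match, chr10:86705528-86705556, minus strand: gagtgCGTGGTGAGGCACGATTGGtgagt
Dnajc3, chr14:118937822-118937850, plus strand: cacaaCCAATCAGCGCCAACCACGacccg
Canx, chr11:50325795-50325823, minus strand: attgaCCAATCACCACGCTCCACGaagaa
Calr, chr8:84847070-84847098, minus strand: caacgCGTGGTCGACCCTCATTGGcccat
Pdia6, chr12:17266486-17266514, plus strand: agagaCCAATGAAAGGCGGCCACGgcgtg
Creld2, chr15:88819515-88819543, plus strand: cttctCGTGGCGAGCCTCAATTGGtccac
Syvn1, chr19:6046527-6046555, plus strand: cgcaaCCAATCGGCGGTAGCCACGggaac

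The elements ended between 25 bases (Syvn1) and 193 bases (the first match of Hsp90b1) before the annotated start, outside annotated exons except for that of Hspa5, which lies in an exon of a longer Hspa5 transcript. The second part CCACG alone, which is short and contained in the full element, occurred in 24 of the 29 genes (82.8%) and in 35.5% of all genes. The composite site of ATF4 and CHOP, TGATGCAAT, was found in 0 of the 29 genes and in 0.222% of all genes, which says only that these letters are not in the windows read. A heat shock element, here 3 alternating units of GAA and TTC each 2 bases apart, occurred in 3 of the 29 (10.3%; Hsph1, Hspd1 and Hspe1) and in 0.662% of all genes. Hspd1 and Hspe1, which encode the mitochondrial chaperonin and its partner, are transcribed away from each other and share 1 site at chr1:55088054-55088081, within an annotated Hspd1 exon, shown here because both windows contain it. Its capitals join overlapping matches of the element into 1 stretch of 18 bases.
Hspd1, minus strand: gggccTTCCGGAAGGTTCTAGAAcggac
Hspe1, plus strand: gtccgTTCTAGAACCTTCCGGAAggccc

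The ER chaperones and their co-chaperones lay on both sides of the R26K against H3.3 comparison. Sdf2l1 encodes a small ER protein that works with the DnaJ proteins around BiP (chr16:17130138-17132383, GRCm38, GENCODE M21, minus strand). Its mean level per length over the 6 libraries was the highest of this role, which rests on the R26K libraries: in H3.3 eggs it had 15.5 CPM per kb, below Hspa5 at 64.8 and Hsp90b1 at 53.1 CPM per kb. It measured 16.6 and 17.8 CPM in H3.3 eggs, 15.1 and 31.1 CPM in K27R eggs and 212 and 164 CPM in R26K eggs. Both R26K libraries stood far above the other 4, which lay close together. The level in R26K eggs was 10.9-fold that in H3.3 eggs (log2 3.45 ± 0.65 SE, edgeR adjusted p 0.0864), and K27R against R26K gave a log2 difference of -3.03 ± 0.64 SE (adjusted p 0.154).

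Dnajc3 encodes p58IPK, a BiP co-chaperone of the ER lumen that was first described as an inhibitor of PERK-type kinases (chr14:118937976-118981697, plus strand). Its libraries read 147 and 194 CPM in H3.3 eggs, 198 and 284 CPM in K27R eggs and 482 and 448 CPM in R26K eggs. The R26K values were again the highest of the 6, while the K27R values began just above the H3.3 values. The log2 difference was 1.45 ± 0.32 SE for R26K against H3.3 (edgeR adjusted p 0.125) and -0.95 ± 0.32 SE for K27R against R26K (adjusted p 0.346).

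Hspa5 encodes BiP, the HSP70 of the ER and the usual marker of an unfolded protein response (chr2:34771970-34777547, plus strand). It measured 288 and 188 CPM in H3.3 eggs, 99.7 and 112 CPM in K27R eggs and 94.2 and 122 CPM in R26K eggs. Here the H3.3 libraries were the high ones, and the K27R and R26K libraries overlapped. The log2 difference was -1.14 ± 0.40 SE for R26K against H3.3 (edgeR adjusted p 0.213) and -1.17 ± 0.40 SE for K27R against H3.3 (adjusted p 0.522), 2 comparisons that share the H3.3 libraries. BiP mRNA and the mRNAs of its co-chaperones Sdf2l1 and Dnajc3 therefore lay on opposite sides of the R26K against H3.3 comparison.

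Hsp90b1, the HSP90 of the ER (GRP94), measured 184 and 116 CPM in H3.3 eggs, 190.2 and 127 CPM in K27R eggs and 99.96 and 92.3 CPM in R26K eggs. Both R26K libraries were the lowest of the 6, by a margin smaller than the gap within the other pairs (log2 -0.64 ± 0.44 SE against H3.3, edgeR adjusted p 0.422). Dnajb11, which encodes the BiP co-chaperone ERdj3, ranged from 3.91 CPM in the second H3.3 library to 89.6 CPM in the second R26K library, and the H3.3 pair alone spanned 3.91 to 54.2 CPM. Hyou1, a large ER chaperone that exchanges the nucleotide of BiP, stayed between 1.04 and 13.9 CPM, with overlapping groups. Dnajb9 (ERdj4), a BiP co-chaperone that restrains IRE1 alpha, had no count in H3.3 or K27R eggs and 6.90 and 3.48 CPM in R26K eggs, which is at least 21.4-fold higher than in H3.3 eggs and at least 19.6-fold higher than in K27R eggs, with 3 counts per library taken for the empty groups. Genes of this level often had no count in 3 of the 4 shallower libraries, by the shares given above.

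Canx and Calr encode the membrane and soluble lectins that hold newly made glycoproteins during folding. Canx (calnexin, chr11:50293961-50325673, minus strand) measured 559 and 354 CPM in H3.3 eggs, 429.8 and 408 CPM in K27R eggs and 149 and 141 CPM in R26K eggs. Both R26K libraries lay below all others, and the K27R pair lay inside the range of the H3.3 pair. The R26K level was 3.14-fold lower than that of H3.3 eggs (log2 -1.65 ± 0.31 SE, edgeR adjusted p 0.0871), and K27R against R26K gave 1.53 ± 0.31 SE (adjusted p 0.145), the smallest p among these genes in that comparison.

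Calr (calreticulin, chr8:84841850-84846934, minus strand) went the other way, with 15.5 and 3.14 CPM in H3.3 eggs, 65.4 and 38.5 CPM in K27R eggs and 71.5 and 85.5 CPM in R26K eggs. The H3.3 libraries were the 2 lowest and differed from each other several-fold. The log2 difference was 3.07 ± 1.03 SE for R26K against H3.3 (edgeR adjusted p 0.213) and 2.48 ± 1.01 SE for K27R against H3.3 (adjusted p 0.522). Because Canx had the higher CPM in each library, the summed level of both lectins was 221 and 227 CPM in R26K eggs, below 575 and 357 CPM in H3.3 eggs and 495 and 446 CPM in K27R eggs.

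Protein disulfide isomerases form and rearrange the disulfide bonds of secreted proteins. Pdia6 (P5, chr12:17266545-17284770, plus strand) had the highest level per length of the 37 genes in H3.3 and K27R eggs and the third highest in R26K eggs, and measured 658 and 823 CPM in H3.3 eggs, 525 and 559 CPM in K27R eggs and 466 and 395 CPM in R26K eggs. The 3 pairs did not overlap, with H3.3 highest and R26K lowest. The steps were small, with a log2 difference of -0.78 ± 0.25 SE for R26K against H3.3 (edgeR adjusted p 0.213) and -0.45 ± 0.25 SE for K27R against H3.3 (adjusted p 0.532). Pdia3 (ERp57), the isomerase that works with Canx and Calr, measured 82.9 and 51.7 CPM in H3.3 eggs, 118 and 132 CPM in K27R eggs and 128 and 135 CPM in R26K eggs, so that the H3.3 libraries were the 2 lowest (log2 0.97 ± 0.45 SE for R26K against H3.3, adjusted p 0.255). Pdia4 (ERp72) ranged from 10.5 to 58.8 CPM, and both ends of this range were H3.3 libraries. Exons of Pdia6 and Pdia3 overlap those of Atp6v1c2 and Catsper2 on the other strand, and since the library kit does not mark strand, reads in the overlaps cannot be told apart.

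The secreted ER stress proteins were Creld2 and Manf. Creld2 encodes a calcium-binding ER protein that is secreted under stress (chr15:88819646-88826683, plus strand), and measured 92.7 and 31.9 CPM in H3.3 eggs, 117 and 270 CPM in K27R eggs and 483 and 463 CPM in R26K eggs. The 3 pairs did not overlap, in the order H3.3, K27R, R26K, but the H3.3 pair and the K27R pair each spread more than 2-fold while the R26K pair was tight. The log2 difference was 2.92 ± 0.65 SE for R26K against H3.3 (7.59-fold, edgeR adjusted p 0.126) and 1.63 ± 0.62 SE for K27R against H3.3 (3.10-fold, adjusted p 0.522). Leaving out a library leaves its group with 1, which is then assumed to vary like the other groups; in such fits without either R26K library the first difference had an adjusted p of 0.00335 and 0.00170. Manf, a neurotrophic factor retained in the ER by BiP, ranged from 8.198 to 124 CPM, both in H3.3 libraries, and the other 4 libraries lay between. Exons of Rbm15b overlap those of Manf on the same strand and exons of Dcaf1 on the other, so that reads in the overlaps cannot be told apart.

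In ER-associated degradation, misfolded proteins are recognized, drawn back through the membrane and ubiquitinated. Edem1, a mannosidase-like protein that marks glycoproteins for this route (chr6:108828641-108859356, plus strand), had the highest level per length of the role in H3.3 and K27R eggs, though not in R26K eggs (21.8 CPM per kb, against 43.3 CPM per kb for Syvn1), and measured 323 and 202 CPM in H3.3 eggs, 130.1 and 95.1 CPM in K27R eggs and 125 and 129 CPM in R26K eggs. As with Hspa5, the H3.3 libraries were the 2 highest and the other 4 overlapped. The log2 difference was -1.22 ± 0.39 SE for K27R against H3.3 (edgeR adjusted p 0.522), the smallest p among the 35 genes in that comparison, and -1.05 ± 0.39 SE for R26K against H3.3 (adjusted p 0.213).

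Syvn1 encodes HRD1, the ubiquitin ligase at the centre of this pathway, and Sel1l its membrane partner. Syvn1 (chr19:6046576-6053712, plus strand) measured 32.4 and 13.9 CPM in H3.3 eggs, 17.8 and 5.70 CPM in K27R eggs and 118 and 182 CPM in R26K eggs. Both R26K libraries stood above the other 4 (log2 2.70 ± 0.88 SE against H3.3, edgeR adjusted p 0.213), and K27R against R26K gave -3.67 ± 0.92 SE (adjusted p 0.225). Exons of Mrpl49 overlap those of Syvn1 on the other strand. Sel1l measured 14.4 and 2.80 CPM in H3.3 eggs, 42.4 and 0.0950 CPM in K27R eggs, the latter a single count, and 64.5 and 51.3 CPM in R26K eggs. Its R26K libraries were also the 2 highest, but the other pairs varied so widely that the standard error reached 2.21 on the log2 scale. Herpud1, which brings HRD1 complexes together, was without a count in H3.3 eggs, had 72 counts and 1 count in the K27R libraries (5.86 and 0.0950 CPM), and 2.12 and 4.02 CPM in the R26K libraries. Against 3 counts per H3.3 library this is at least 12.7-fold higher in R26K eggs and at least 12.3-fold higher in K27R eggs, the latter resting on 1 library. Both bounds cover counting error only, and genes of this level often had no count in H3.3 libraries.

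Of the 3 sensors, Ern1 (IRE1 alpha, chr11:106394650-106487852, minus strand), the kinase and nuclease that splices Xbp1 mRNA, had the highest level per length in K27R and R26K eggs, and Atf6 in H3.3 eggs (7.73 against 7.22 CPM per kb). Its libraries read 57.0 and 43.3 CPM in H3.3 eggs, 68.2 and 96.6 CPM in K27R eggs and 116 and 201 CPM in R26K eggs. The pairs did not overlap and followed the order H3.3, K27R, R26K, as for Creld2, with a log2 difference of 1.66 ± 0.52 SE for R26K against H3.3 (edgeR adjusted p 0.213) and 0.72 ± 0.51 SE for K27R against H3.3 (adjusted p 0.646). Eif2ak3, which encodes the kinase PERK that slows translation by phosphorylating eIF2 alpha, had no count in H3.3 eggs, 3.26 CPM and no count in K27R eggs, and 25.8 and 13.6 CPM in R26K eggs. Against 3 counts per H3.3 library the R26K level was at least 81.4-fold higher (edgeR adjusted p 0.220) and that of K27R at least 6.72-fold higher, in 1 of its libraries. These bounds cover counting error only. Of genes with a mean of 2 to 10 CPM over the remaining libraries, 57.7% and 58.9% had no count in the H3.3 pair. Atf6, a membrane-bound transcription factor released by cleavage, ranged from 22.3 to 77.1 CPM, both in K27R libraries, and no pair of groups was separated.

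The transcription factors downstream had at most 57.7 CPM in any library. Atf4, the factor translated when eIF2 alpha is phosphorylated, had the highest level per length of the role and measured 46.7 and 56 CPM in H3.3 eggs, 57.7 and 21.5 CPM in K27R eggs and 38.5 and 45.2 CPM in R26K eggs. All values lay within the range of the K27R pair, and both R26K libraries lay below both H3.3 libraries. R26K against H3.3 gave a log2 difference of -0.30 ± 0.82 SE, which became -1.73 ± 0.84 SE once GC content and length were corrected for (edgeR adjusted p 0.298). Xbp1 had a count in 1 H3.3 library, at 2.46 CPM, in neither K27R library, and at 11.9 and 7.93 CPM in the R26K libraries, at least 37.4-fold higher than in K27R eggs. That bound covers counting error only. Counts per gene do not separate spliced from unspliced Xbp1 mRNA, and most control of Atf4 is at translation, so neither gene's count reads the activity of its branch. Ddit3 (CHOP), which promotes cell death under lasting ER stress, measured 12.3 and 18.9 CPM in H3.3 eggs, 7.98 CPM and no count in K27R eggs, and 3.88 and 9.59 CPM in R26K eggs. The H3.3 libraries were the 2 highest, with a log2 difference of -1.21 ± 2.6 SE for R26K against H3.3; exons of Mars overlap those of Ddit3 on the other strand.

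**Figure D3:**
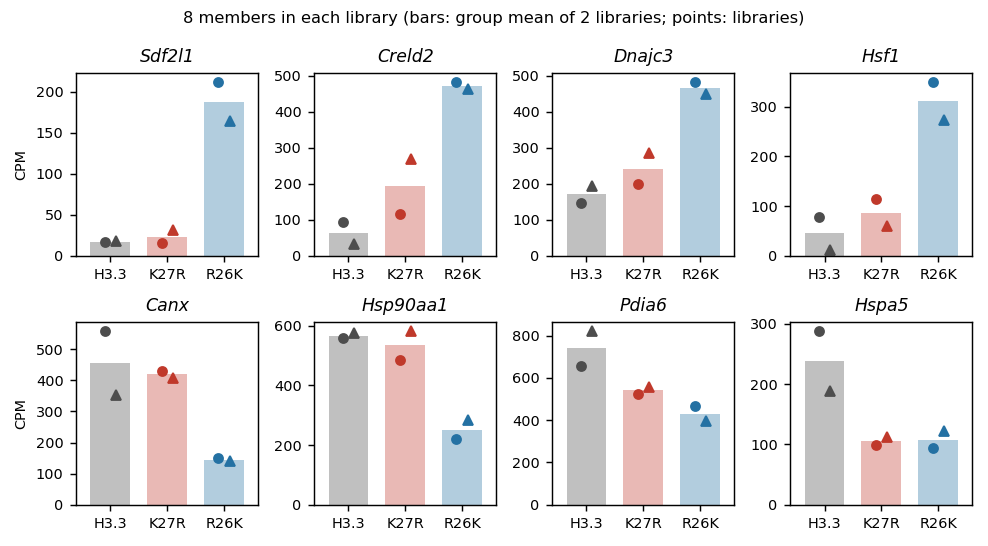
CPM of 8 genes in each library, with bars from 0 for the mean of each group's 2 libraries, circles for replicate 1 and triangles for replicate 2. Sdf2l1, Creld2, Dnajc3 and Hsf1 (upper row) have both R26K libraries on top, Canx, Hsp90aa1 and Pdia6 (lower row) have both at the bottom, and Hspa5 is high in the H3.3 libraries alone.

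Among the cytosolic chaperones, Hsp90aa1 lay lower in R26K eggs, and its paralogue Hsp90ab1 overlapped between the groups as counted. Hsp90aa1, the stress-inducible form (chr12:110690605-110702728, minus strand), measured 559.7 and 575 CPM in H3.3 eggs, 485 and 583 CPM in K27R eggs and 219 and 283 CPM in R26K eggs. Both R26K libraries lay far below the other 4, which overlapped. The R26K level was 2.26-fold lower than in H3.3 eggs (log2 -1.18 ± 0.26 SE, edgeR adjusted p 0.127), and K27R against R26K gave 1.09 ± 0.26 SE (adjusted p 0.203). Hsp90ab1, the constitutive form and the highest of the role per length, measured 1016 and 444 CPM in H3.3 eggs, 505 and 596 CPM in K27R eggs and 569 and 773 CPM in R26K eggs, with its widest gap inside the H3.3 pair and a log2 difference of -0.12 ± 0.42 SE for R26K against H3.3. After the same correction the 2 paralogues were closer, at -1.19 ± 0.29 SE for Hsp90aa1 and -0.91 ± 0.42 SE for Hsp90ab1 (edgeR adjusted p 0.289 for the latter). The difference between them was not tested. Hsp90aa1 has 3 near-identical pseudogenes (at least 95% identity over at least 200 bases), which the authors' counting could split.

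The HSP70 and J-protein genes of the cytosol among the 37 were at or under 73.0 CPM. Some J-protein genes of the wider list, named after their values were seen, were not low. Dnajb4 lay between 694 and 1933 CPM, and Dnajc8 between 379 and 812 CPM. Others there were low, such as Dnajb12 with a mean of 1.86 CPM, and Dnajb5 had no count in any library. Hspa8, the constitutive HSC70, ranged from 1.33 to 11.9 CPM; 8 near-identical sequences, 7 of them pseudogenes, make its level uncertain. Dnaja1, a J-protein partner of HSC70 with 4 near-identical sequences, 3 of them pseudogenes, ranged from 22.9 to 47.96 CPM with overlapping H3.3 and R26K pairs. The remaining sequence is Smu1, whose exons overlap those of Dnaja1 on the other strand. Dnajb1 (HSP40) measured 49.6 CPM and no count in H3.3 eggs, 21.4 and 42.9 CPM in K27R eggs and 73.0 and 57.7 CPM in R26K eggs. The R26K libraries were the highest, but the H3.3 pair ran from no count to 49.6 CPM, and the standard error was 2.21 on the log2 scale. A fit without the first H3.3 library leaves only the one at 0, with its spread taken from the other groups. Hspa4, an exchange factor of the HSP110 class, had no count in the second library of H3.3 and of K27R, and at most 10.3 CPM elsewhere. Hsph1 (HSP105), another exchange factor, ranged from 2.28 to 33.1 CPM. Bag3, a co-chaperone of stress-induced autophagy, had no count in any of the 6 libraries, which allows up to 0.0815 CPM in the deepest library.

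For each of the 3 mitochondrial chaperones, both K27R libraries lay below both R26K libraries, as they did for 36.3% of all tested genes. Hspe1 (HSP10), the highest of the role per length in H3.3 and K27R eggs and just below Hspa9 in R26K eggs, measured 41.5 and 47.6 CPM in H3.3 eggs, 30.9 and 16.8 CPM in K27R eggs and 39.1 and 36.2 CPM in R26K eggs. The K27R libraries were the 2 lowest, with a log2 difference of -0.90 ± 0.88 SE for K27R against H3.3 (edgeR adjusted p 0.804). Hspd1 (HSP60), the chaperonin that HSP10 caps, had no count in the second H3.3 library and between 17.5 and 32.9 CPM in the other 5. Exons of Hspd1 and Hspe1 overlap on opposite strands, so that some reads could count for either. Hspa9 (mortalin), the HSP70 of the mitochondrial import motor, measured 82.2 and 157 CPM in H3.3 eggs, 97.3 and 46.7 CPM in K27R eggs and 139.6 and 170.0 CPM in R26K eggs, and K27R against R26K gave a log2 difference of -1.10 ± 0.56 SE (edgeR adjusted p 0.512). The same comparison gave -0.66 ± 0.88 SE for Hspe1 and -0.52 ± 2.31 SE for Hspd1, and R26K against H3.3 gave 0.37 ± 0.56 SE for Hspa9.

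Hsf1, the main factor of the heat shock response (chr15:76477422-76501913, plus strand), measured 78.1 and 12.6 CPM in H3.3 eggs, 113 and 60.6 CPM in K27R eggs and 349.6 and 273 CPM in R26K eggs. Both R26K libraries lay above the other 4, and as a ratio the H3.3 pair differed more than any other pair for this gene. The log2 difference was 2.78 ± 0.88 SE for R26K against H3.3 (edgeR adjusted p 0.213) and -1.84 ± 0.85 SE for K27R against R26K (adjusted p 0.445). Without the first H3.3 library, the higher of its pair, the first difference was 4.62 (adjusted p 0.0475), set against a lone H3.3 library whose spread comes from the other groups. Hsf1 and the HSP90 gene Hsp90aa1, a textbook target of the factor, thus lay on opposite sides in R26K eggs. Hsf2, the second factor of the family and known from germ cells, had 5 counts and 1 count in H3.3 eggs, 7 and 2 in K27R eggs, and 22 and 0 in R26K eggs, all at or under 0.597 CPM.

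K27R eggs differed less from H3.3 eggs than R26K eggs did. The R26K libraries were also the deeper ones, so that depth cannot be told apart from the histone form here. Both K27R libraries lay above both H3.3 libraries for 7 of the 35 genes (20%), against 15.9% of all genes, and below for 6 (17.1%), against 9.62% of all genes. The higher genes were Dnajc3, Calr, Pdia3, Creld2, Herpud1, Ern1 and Hspa8, and the lower ones Hspa5, Pdia6, Edem1, Ddit3, Hsph1 and Hspe1. The median log2 difference was 0 over the 35 genes and 0.12 over all genes. The smallest unadjusted p-values, those of Edem1 (0.0200), Hspa5 (0.0250), Creld2 (0.0384) and Calr (0.0479), all gave an adjusted p of 0.522 in edgeR.

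K27R against R26K, the comparison of the 2 substituted forms, had 17 genes (48.6%) with both K27R libraries below both R26K libraries, against 36.3% of all genes, and 6 genes (17.1%) above, against 17.5%. The 6 were Hsp90b1, Canx, Pdia6, Hsp90aa1, Hspa8 and Dnaja1. The median log2 difference was -0.60 over the 35 genes against -0.32 over all genes, and -0.17 against 0.00141 over those with at least 50 CPM; upper-quartile scaling brought the first pair to -0.37 and -0.096. This comparison shares its R26K libraries with R26K against H3.3.

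The spread between replicates differed among groups. Over the 27 members with a mean of at least 10 CPM, the 2 libraries of a group differed by a median of 0.929 on the log2 scale in H3.3 eggs, 0.802 in K27R eggs and 0.273 in R26K eggs, against 1.08, 0.891 and 0.341 over all such genes. More than 2-fold apart were 12 of the 27 in H3.3 eggs (44.4%; 52.2% of all genes), 10 in K27R eggs (37%; 46%) and 1 in R26K eggs (3.7%; 12.1%). Manf, Pdia4, Dnajb11 and Hsf1 were among those with a wide H3.3 pair. The H3.3 and K27R libraries were also the shallower ones, and the part of depth in this was not tested.

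GC content moved with the difference between R26K and H3.3 eggs. Over all abundant genes (mean of at least 50 CPM), the median log2 difference went from -0.84 under 40% GC to 1.36 at 56% GC and above, and Spearman's rho with transcript GC content was 0.407 across 2847 genes. Across the 17 abundant members rho was 0.679 and Pearson's r 0.758; these are correlations across genes of the same libraries, and genes are not independent replicates. Sdf2l1 (56.7% GC), Syvn1 (56.6%), Creld2 (54.8%) and Hsf1 (53.4%) were the higher genes with the most GC, and Canx (42.2%) and Hsp90aa1 (43.7%) were lower genes with little. Dnajc3, at 43.2% GC, was high in R26K eggs although it is as poor in GC as Canx. Across the same 17 genes rho was 0.152 in K27R against H3.3 and -0.681 in K27R against R26K.

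A correction of the offsets for GC content and length brought rho over all abundant genes to -0.059 and that of the 17 members to 0.434. The log2 difference of R26K against H3.3 became 2.52 ± 0.59 SE for Sdf2l1, 2.12 ± 0.63 SE for Creld2, 1.41 ± 0.37 SE for Dnajc3 and 1.64 ± 0.74 SE for Hsf1. Syvn1 moved from 2.70 to 0.79 ± 0.74 SE and Ern1 from 1.66 to 0.79 ± 0.54 SE. On the lower side Canx was at -1.50 ± 0.28 SE (adjusted p 0.102), Pdia6 at -1.41 ± 0.29 SE, Hspa5 at -1.39 ± 0.39 SE and Edem1 at -1.42 ± 0.34 SE. Hsp90aa1, at -1.19, stayed where it was as counted, and Pdia6 moved further down from -0.78, as did Atf4 and Hsp90ab1. Of the 32 members with counts in both groups, 14 moved by more than 1.5-fold, and 2 with a difference under 1 SE changed sign (Hspa4 from 0.067 to -0.22 and Hspe1 from -0.24 to 0.090). No member passed the edgeR threshold after the correction.

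**Figure D4:**
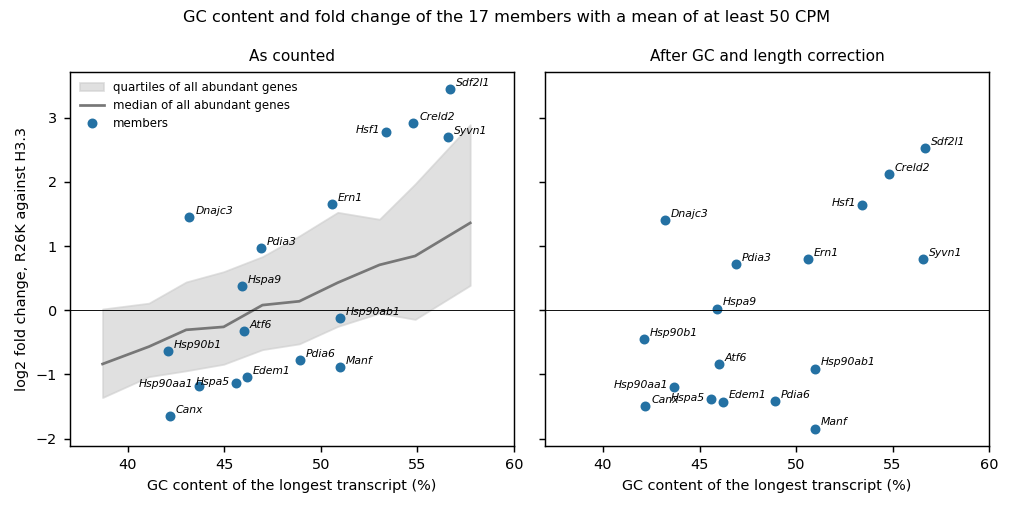
GC content of the longest transcript (x axis, %) and log2 fold change of R26K against H3.3 (y axis) for the 17 members with a mean of at least 50 CPM, as counted (left, with a line for the median and a band from the lower to the upper quartile of all abundant genes by GC bin) and after the correction for GC content and length (right). Sdf2l1, Creld2 and Dnajc3 stay high and Canx, Hsp90aa1, Pdia6, Hspa5 and Edem1 stay low on the right, while Syvn1 comes down from 2.70 to 0.79.

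A wider list of chaperone and stress response genes was read from the same edgeR fit. Of its 104 tested genes, 1 was called lower in R26K against H3.3, where 0.619% of all genes were called. In K27R against R26K 1 was called higher and 1 lower, next to 0.375% of all genes. Whether the list differs from the 37 in its calls was not tested. The list held 127 genes with a row. Of the 104 tested, both R26K libraries lay above both H3.3 libraries for 59 (56.7%, against 44.9% of all genes) and below for 14 (13.5%, against 15.2%). Genes without a count in either H3.3 library, such as Ero1lb, Bag4, Ufd1l and Ube2j1, can only lie level or higher in R26K eggs. Such genes are among the 59 and enter the median and the counts of positive differences below. The abundant genes of the list were not looked at apart. The median log2 difference of R26K against H3.3 was 1.27, against 0.66 over all genes. A positive difference was found for 67.3% of the list and 61.3% of all tested genes. By group it was found for 15 of 19 genes in ER-associated degradation, 25 of 34 cytosolic chaperones and cofactors, 9 of 13 genes of stress response signalling, 5 of 8 mitochondrial chaperones and proteases, 11 of 18 genes of ER folding and oxidation, and 5 of 12 genes of the chaperonin TRiC and prefoldin.

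Ptges3, the HSP90 co-chaperone p23, was the 1 gene of the list called in R26K against H3.3. It measured 607 and 828 CPM in H3.3 eggs, 468 and 632 CPM in K27R eggs and 65.6 and 80.0 CPM in R26K eggs, and both R26K libraries lay far below the other 4, as for Hsp90aa1. It was 9.85-fold lower in R26K than in H3.3 eggs (log2 -3.30 ± 0.33 SE, edgeR adjusted p 0.0314) and 7.55-fold higher in K27R than in R26K eggs (adjusted p 0.0293). Without the second H3.3 library the first call was lost (adjusted p 0.0527), and it was also lost without either K27R library (adjusted p 0.104 and 0.111), as was the second (0.150 and 0.304).

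Txndc5, an ER protein disulfide isomerase with thioredoxin domains, was called lower in K27R than in R26K eggs (216 and 163 CPM in H3.3, 127 and 98.3 CPM in K27R, 659.7 and 590.2 CPM in R26K; log2 -2.47 ± 0.31 SE, edgeR adjusted p 0.0488). The call was lost without either K27R library (adjusted p 0.173 and 0.359), and the GC and length correction brought the difference to -1.47 (adjusted p 0.147). Herpud2, a relative of Herpud1, measured 183 and 301 CPM in H3.3 eggs, 221 and 309 CPM in K27R eggs and 921 and 1050.5 CPM in R26K eggs. Both R26K libraries lay well above the other 4, and the difference from H3.3 eggs just missed the threshold (log2 2.03 ± 0.35 SE, edgeR adjusted p 0.0736). Fits with 1 R26K library, whose spread comes from the other groups, gave an adjusted p of 0.00652 and 0.0242.

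In K27R against H3.3 none of the 104 was called (8 at an unadjusted p under 0.05). The smallest p-values belonged to genes without counts in H3.3 eggs or nearly so. Ero1lb, an ER oxidase that recharges disulfide isomerases, had no count in H3.3 eggs, 13.9 and 25.6 CPM in K27R eggs and 35.8 and 51.2 CPM in R26K eggs. Clpx, the ATPase of a mitochondrial protease, had no count in H3.3 eggs, 27.5 and 47.95 CPM in K27R eggs and 16.1 and 10.2 CPM in R26K eggs. Against 3 counts per H3.3 library they were at least 81.6-fold and at least 156-fold higher in K27R eggs (edgeR adjusted p 0.522 for each). These bounds cover counting error only. Of genes with a mean of 20 to 50 CPM over the remaining libraries, 15% and 19.1% had no count in the H3.3 pair. Hspa12a, a distant HSP70, had 0 counts and 1 count in H3.3 eggs and 29.2 and 24.9 CPM in K27R eggs.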

How the data were processed

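Polyadenylated RNA of 6 libraries was read as single ends after SMARTer cDNA synthesis and Nextera library preparation, per the labels' protocols; the Nextera kit does not mark strand. The submitters' processing notes name cutadapt 1.9.1, TopHat2 2.1.0, SAMtools 1.3, featureCounts and build mm10; not given in the sources used here are the annotation, the strand setting and the treatment of reads with several matches. Raw counts per gene for 24062 symbols, whole numbers without normalization, were deposited by the authors in 1 table, of which 0 columns were left out.

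From these counts, genes were kept by filterByExpr (10667 genes, at least 99.81% of each library's counts) and tested in 1 fit of 3 group means with edgeR 4.0.16 (R 4.3.3, TMM, quasi-likelihood, 3 residual degrees of freedom, common dispersion 1.63), two-sided, with Benjamini-Hochberg adjustment and a threshold of 0.05. The SE was taken as the log2 change over the root of F. A group without counts was set to 3 counts per library for lower bounds, which cover counting error only. Groups and numbers came from the titles. The pairs were checked: deviations of same-numbered libraries correlated with r from -0.00352 to 0.0584. With libraries this variable, such values cannot exclude a shared source of same-numbered libraries. The main fit did not pair them. The steps were tested on simulated data.

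Alternatives were DESeq2 1.42.0, scaling by RLE or the upper quartile, a filter of 10 CPM, no filter, a fit of the 2 groups compared, robust spread, the replicate block, a correction for GC content and length, and each library left out. The correction fitted, by loess (span 0.5), each library's deviation against GC content and log length for genes of at least 50 CPM. Coordinates, lengths, GC and exon overlaps are from GENCODE M21 (GRCm38, which is mm10; 98.4% of symbols matched), near-identical sequences from blastn 2.17.0 (at least 95% identity over 200 bases), and promoters from RefSeq, GRCm38.p6. The 37 genes, the wider list (127 of 128 symbols found) and the markers were chosen with earlier results of these data known. Named were all 37 by role, with values for the 5 smallest p-values per comparison and the highest level per length in each role, and, of the wider list, called genes and the 3 smallest p-values per comparison, of which 1 gene is not reported here; Hspa5, Calr, Syvn1 and some others also have values as part of their role.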

Additional observations from a re-analysis of the deposited data

How the results depend on the processing

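The count of the 37 genes called was 0 in the main edgeR test for each comparison, and also with RLE or upper-quartile scaling, a 10 CPM filter, the 2 groups alone, robust spread and the GC and length correction. For R26K against H3.3 it was 12 with DESeq2, 1 without a filter (Creld2), 3 with the replicate block (Canx, Creld2 and Hsf1) and 0 to 2 with each library left out (Dnajb1 and Hsf1 without the first H3.3 library, Creld2 without either R26K library). For K27R against R26K it was 4 with DESeq2, and for K27R against H3.3 it was 0 under each alternative. Over all genes, R26K against H3.3 went from 66 calls to 1630 with DESeq2, 241 without a filter, 157 with the 10 CPM filter, 0 with the 2 groups alone, 260 with the replicate block, 29 with the GC and length correction and 1 to 193 with each library left out. K27R against H3.3 went from 0 to 687 with DESeq2 and 0 to 5 with each library left out. K27R against R26K went from 40 to 755 with DESeq2, 156 without a filter, 95 with the 10 CPM filter, 195 with the replicate block and 0 to 140 with each library left out. The cause was not tested. The 28 log2 differences followed through each alternative, those of the genes with the smallest p-values, kept their sign. Over all members with counts in both groups, DESeq2 or the GC and length correction turned the sign of 2 of 32 in R26K against H3.3 (Hspa4 and Hspe1), 3 of 31 in K27R against H3.3 (Hsp90b1, Hyou1 and Dnaja1) and 7 of 33 in K27R against R26K (Hspa5, Pdia3, Herpud1, Edem1, Atf4, Hsp90ab1 and Dnajb1), each with an edgeR difference under 1 SE. Ptges3 and Txndc5 also lost calls in fits of the 2 groups alone, Ptges3 in K27R against R26K with the GC and length correction, and Txndc5 with upper-quartile scaling. Genes of 2 to 10 CPM often had no count in 3 of the 4 shallower libraries. The first K27R library, which is of similar depth, lacked a count for fewer of them (21%). At 20 to 50 CPM the share without a count was still 15% and 19.1% in the H3.3 pair and 15.8% in the second K27R library. The part of depth in this was not tested.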

Other observations

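The stress-inducible HSP70 genes Hspa1a and Hspa1b, named here after their values were seen, were close to absent from these eggs. Hspa1a had no count in 5 of 6 libraries and 0.665 CPM in the second R26K library. Hspa1b had no count in 5 and 0.817 CPM in the same library. Hspa1a and Hspa1b are near-identical copies that counting can split. Their relative Hspa1l had no count in any library. Hspb1, the small heat shock protein HSP27, had no count in 3 libraries and reached 2.77 and 6.08 CPM in R26K eggs.

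Other genes of the wider list, also chosen after their values were seen, lay apart in R26K eggs without being called. P4hb, the classical protein disulfide isomerase, measured 135 and 239 CPM in H3.3 eggs, 285 and 142 CPM in K27R eggs and 663 and 703 CPM in R26K eggs. Ppp1r15a (GADD34), the phosphatase subunit that ends the translational block set by PERK, measured 90.4 and 38.1 CPM, 219.6 and 126 CPM, and 584 and 409 CPM in the same order. Hsf5, a heat shock factor of germ cells, went the other way, with 277 and 155 CPM in H3.3 eggs, 182 and 472 CPM in K27R eggs and 60.4 and 69.2 CPM in R26K eggs.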
